A study of Mus musculus with 14 samples.

Results

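The genes described here are 35 enzymes of glycolysis and targets of the hypoxia-inducible factors (HIFs), of 18781 genes in the expression table of mouse small intestinal organoids. They comprise 14 enzymes or regulators of glycolysis and 21 other HIF targets. The set was chosen because *Adm*, *Hk2* and *Pfkfb3* were low in the single knockouts, so the comparison of the single knockouts with WT chose it and is given as a description without a test. All 35 were in the table and lay above the filter on low values, a mean of at least log2 of 10. The lowest of them was *Gapdh*, with WT libraries between 7.45 and 8.21 on the log2 scale.

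RNA was sequenced from organoids grown from intestinal stem cells in Intesticult medium. All mice carried loxP-flanked alleles, and deletion was driven by Cre from the *Villin* promoter, which is active in intestinal epithelium. WT organoids (n = 4) were ATG16L1flox/flox RNaseH2Bflox/flox without Cre. Atg16l1ΔIEC organoids (n = 4) were ATG16L1flox/flox with VillinCre+/-, and Rnaseh2bΔIEC organoids (n = 2, after the authors excluded a pair of libraries for their read counts) were RNaseH2Bflox/flox with VillinCre+/-. Atg16l1/Rnaseh2bΔIEC organoids (n = 4), called double knockout below, carried both floxed alleles and VillinCre+/-. The organoids received no treatment, and the age of the mice they came from and the number of mice are not given in the sources used here. ATG16L1 is needed for autophagy, and RNASEH2B is a subunit of RNase H2, which removes ribonucleotides from DNA.

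In background, HIF is a pair of an oxygen-regulated alpha subunit (*Hif1a*, *Epas1*) and *Arnt*. When oxygen is present, prolyl hydroxylases (*Egln1*, *Egln2*, *Egln3*) mark the alpha subunit, and the VHL complex has it destroyed. When oxygen is short, HIF accumulates, binds the short motif RCGTG near its target genes and raises glucose uptake, glycolysis, vessel growth and its own brake, the prolyl hydroxylases. The intestinal epithelium is known for a steep oxygen gradient from the vessels below to the nearly oxygen-free lumen, a gradient that organoids in gel do not have in that form.

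Promoter windows from RefSeq (GRCm38.p6, 250 bases before to 50 bases after a transcript start) were found for 32 of the 35 members. *Bnip3l*, *Ndrg1* and *Bhlhe40* had no entry under these symbols, and *Ero1l* was found under its other symbol, Ero1a. The windows were searched on both strands for ACGTG and GCGTG, which together spell RCGTG and cannot match at the same position of a strand. Of 45 windows of members, 36 (80.0%) held at least 1 match, against 43.8% of all 32851 windows. ACGTG alone was in 55.6% of the members' windows and 19.6% of all windows, and GCGTG in 55.6% and 32.4%. The members were listed as glycolysis enzymes and HIF targets, so a higher share can follow from how the list was made. The windows were not matched for base composition, and a match is a run of letters and not a measured binding site. The stretches printed here are from members whose values are given in full, lie outside the annotated gene, and have their matches in capitals (CACGT and CACGC are the motifs on the other strand). The windows of *Hk2* and *P4ha1* held 1 and 2 further matches that are not printed.
Adm: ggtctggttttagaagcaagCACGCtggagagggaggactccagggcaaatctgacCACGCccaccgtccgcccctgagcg
Hk2: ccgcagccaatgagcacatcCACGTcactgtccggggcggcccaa
Egln3: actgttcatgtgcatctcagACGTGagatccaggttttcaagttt
P4ha1: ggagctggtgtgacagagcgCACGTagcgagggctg
Ddit4: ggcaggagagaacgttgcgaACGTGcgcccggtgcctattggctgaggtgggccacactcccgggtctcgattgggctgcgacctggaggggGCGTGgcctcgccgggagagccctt
Stc2: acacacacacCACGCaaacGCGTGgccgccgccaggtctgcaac
The stretches lie at chr7:110627547-110627627 on the plus strand for *Adm*, chr6:82774482-82774526 on the minus strand for *Hk2*, chr12:54204079-54204123 on the minus strand for *Egln3*, chr10:59323260-59323295 on the plus strand for *P4ha1*, chr10:59951861-59951977 on the minus strand for *Ddit4* and chr11:31370268-31370311 on the minus strand for *Stc2*. The window of *Slc2a1*, the main glucose uptake carrier of many cells, held 1 match of each motif, that of *Ankrd37* held 2 of each, and those of *Gpi1* and *Tpi1* held none.

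The libraries were first checked against their labels. *Atg16l1* lay between 9.43 and 9.54 (log2 value) in WT, between 6.73 and 7.35 in Atg16l1ΔIEC and at 9.52 and 9.53 in Rnaseh2bΔIEC libraries. In the libraries labelled double knockout it was 8.37, 8.14, 8.57 and 8.47, above every Atg16l1ΔIEC library and below every WT library. *Rnaseh2b* was 7.21 and 7.15 in Rnaseh2bΔIEC libraries, between 8.41 and 8.70 in WT, and 7.92, 7.68, 7.79 and 7.84 in the double knockout. The double knockout therefore held 47.5% of the WT mean of *Atg16l1* and 60.1% of that of *Rnaseh2b*, against 17.2% in Atg16l1ΔIEC and 39% in Rnaseh2bΔIEC organoids. Both deleted genes were higher in the double knockout than in the matching single knockout (limma adjusted p = 2e-05 for *Atg16l1* and 0.00074 for *Rnaseh2b*). These residual transcripts move with each result on the double knockout below, and their part in those results was not tested.

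The lane of each library is part of its name. Lane 1 held the WT libraries with double knockout libraries 3 and 4, and lane 2 held the single knockouts with double knockout libraries 1 and 2. Lane and genotype cannot be told apart between the single knockouts and WT. Libraries 1 and 2 of a genotype, and 3 and 4, deviated together across genes (r from 0.41 to 0.86), so libraries within these pairs may share a culture, and p-values may then measure technical spread. The epithelial markers, such as *Epcam* and *Vil1*, summed to between 16.9 and 17.01 (log2) in all libraries, and only 4 of 12 stromal and immune markers were past the filter. The depth is unknown, because the deposited values hold no counts.

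**Figure D1:**
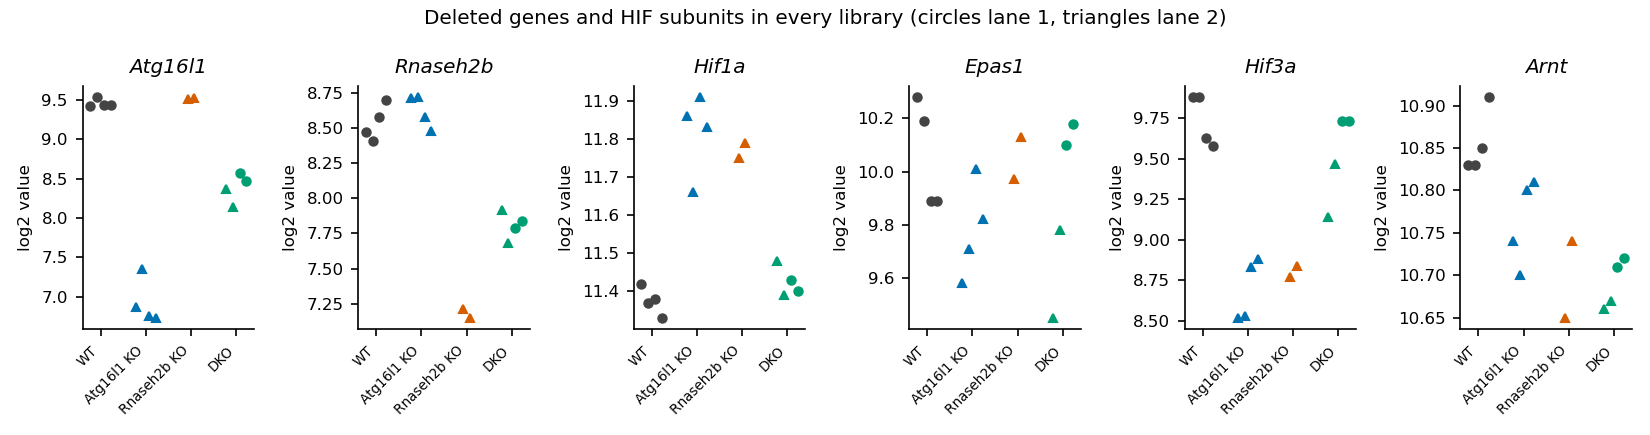
Log2 value of the deleted genes *Atg16l1* and *Rnaseh2b* and of the HIF subunits *Hif1a*, *Epas1*, *Hif3a* and *Arnt* in each of 14 libraries, by genotype on the x axis, with circles for lane 1 and triangles for lane 2. The double knockout (DKO) lies between WT and the matching single knockout for both deleted genes, and *Hif1a* is higher in the single knockouts than in the other genotypes.

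Hexokinase 2, the inducible kinase that traps glucose in the cell, had *Hk2* values of 10.85, 10.90, 11.14 and 11.05 in WT libraries. They were 9.72, 9.66, 9.38 and 9.52 in Atg16l1ΔIEC and 9.52 and 9.64 in Rnaseh2bΔIEC libraries. In the double knockout they were 10.64 and 10.67 in lane 2 and 11.02 and 10.97 in lane 1. All single knockout libraries lay below all others, by 1.41 (Atg16l1ΔIEC) and 1.40 (Rnaseh2bΔIEC) from the WT mean on the log2 scale, which for *Hk2* is 2.64-fold in Rnaseh2bΔIEC organoids. *Pfkfb3*, the enzyme that makes the activator of phosphofructokinase, was 11.42, 11.41, 11.15 and 11.06 in WT and 10.12, 9.83, 9.68 and 9.79 in Atg16l1ΔIEC libraries. It was 9.82 and 9.97 in Rnaseh2bΔIEC and 10.64, 10.92, 11 and 10.98 in double knockout libraries, again with no overlap between the single knockouts and the other genotypes. *Adm*, which encodes the vessel-active peptide adrenomedullin, was 9.45, 9.29, 8.85 and 8.98 in WT libraries and 7.10, 7.41, 7.64 and 7.65 in Atg16l1ΔIEC libraries. It was 7.29 and 7.47 in Rnaseh2bΔIEC and 8.20, 8.42, 8.90 and 8.98 in double knockout libraries. The mean of *Adm* differed from WT by -1.69 in Atg16l1ΔIEC and -1.76 in Rnaseh2bΔIEC organoids, the largest differences among the members. These genes chose the set, and no p-value is given for them. *Hk2* is annotated on chromosome 6 from 82725025 to 82774454, *Pfkfb3* on chromosome 2 from 11471433 to 11554077 and *Adm* on chromosome 7 from 110627661 to 110629820 (GRCm38, GENCODE M21).

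**Figure D2:**
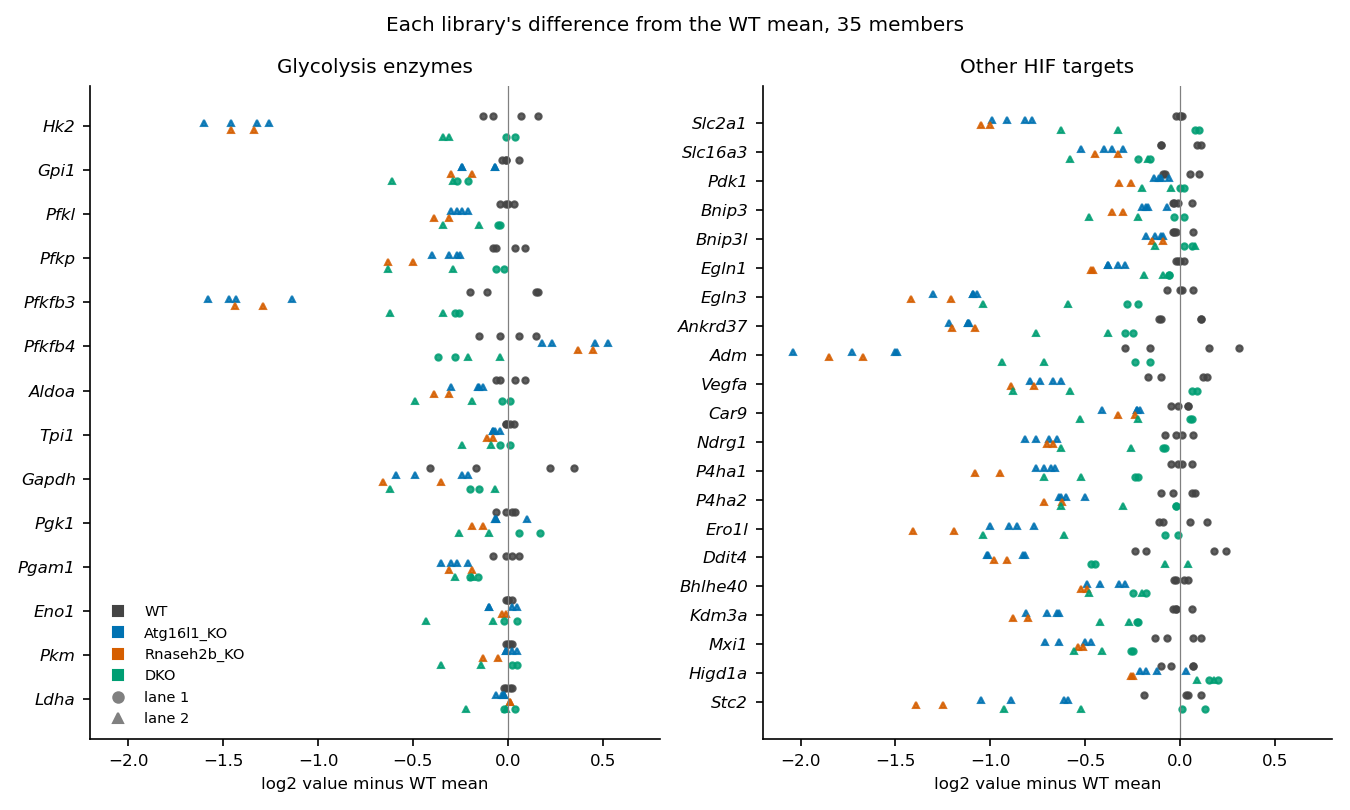
Difference of each library's log2 value from the WT mean (x axis) for the 14 glycolysis enzymes and the 21 other HIF targets (y axis), coloured by genotype, with circles for lane 1 and triangles for lane 2. For 8 of 14 enzymes and 19 of 21 other targets all single knockout libraries lie left of every WT library, and *Pfkfb4* lies to the right in both single knockouts.

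Among all 35 members, 27 had all 6 single knockout libraries below every WT library, 8 of 14 glycolysis enzymes and 19 of 21 other HIF targets. Among all genes tested the share was 10.2%. Because the set was chosen on this contrast, nothing is read from these counts. In Rnaseh2bΔIEC organoids 31 of 35 members lay below every WT library (all genes 27%), and in Atg16l1ΔIEC organoids 28 did (all genes 13.1%). The median difference from WT was -0.50 over the members in Rnaseh2bΔIEC and -0.38 in Atg16l1ΔIEC organoids, and 0 over all genes. It was -0.25 and -0.18 for the glycolysis enzymes and -0.68 and -0.70 for the other HIF targets. With lane as a covariate, whose effect comes from the double knockout libraries alone, the medians over the members were -0.21 and -0.09.

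The differences of the glycolysis steps from WT were not alike in the single knockouts, which share no lane with WT. *Hk2* and *Pfkfb3* chose the set, so their low values are not a result here. Of the other enzymes from glucose to fructose bisphosphate, the phosphofructokinase *Pfkp* differed from WT by -0.56 in Rnaseh2bΔIEC and -0.31 in Atg16l1ΔIEC organoids. The phosphofructokinase *Pfkl* differed by -0.35 and -0.25 and the isomerase *Gpi1* by -0.24 and -0.16. Of the later enzymes, the aldolase *Aldoa* differed by -0.35 and -0.19 and the mutase *Pgam1* by -0.25 and -0.28. The triose phosphate isomerase *Tpi1* (-0.10 and -0.07), the phosphoglycerate kinase *Pgk1* (-0.16 and -0.02), the enolase *Eno1* (-0.02 and -0.04), the pyruvate kinase *Pkm* (-0.09 and 0.01) and the lactate dehydrogenase *Ldha* (0.01 and -0.04) lay near WT. *Gapdh* differed by -0.50 and -0.38, but its WT libraries overlapped both single knockouts. *Gapdh*, *Pgk1*, *Pgam1*, *Eno1*, *Aldoa*, *Tpi1*, *Pkm* and *Ldha* have near-identical processed copies in the genome, among which short reads can be split, so their values are uncertain.

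*Pfkfb4*, a close relative of *Pfkfb3*, went the other way. It was 10.79, 10.70, 10.49 and 10.60 in WT, 10.87, 10.82, 11.17 and 11.10 in Atg16l1ΔIEC, 11.01 and 11.09 in Rnaseh2bΔIEC and 10.43, 10.60, 10.27 and 10.36 in double knockout libraries. All single knockout libraries lay above all others, by 0.35 (Atg16l1ΔIEC) and 0.40 (Rnaseh2bΔIEC) from the WT mean.

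Among the genes of fuel transport and use, the glucose carrier *Slc2a1* was 12.19, 12.22, 12.21 and 12.21 in WT libraries. It was 11.22, 11.43, 11.30 and 11.39 in Atg16l1ΔIEC, 11.16 and 11.21 in Rnaseh2bΔIEC and 11.58, 11.88, 12.29 and 12.31 in double knockout libraries. The double knockout was split by lane, with its lane 1 libraries just above WT and its lane 2 libraries between WT and the single knockouts. The lactate exporter *Slc16a3* differed from WT by -0.39 in Rnaseh2bΔIEC and -0.40 in Atg16l1ΔIEC organoids. *Pdk1*, a kinase that inhibits pyruvate dehydrogenase, differed by -0.29 and -0.10.

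The HIF prolyl hydroxylases that are themselves HIF targets were lower in both single knockouts. *Egln3* was 13.48, 13.41, 13.55 and 13.49 in WT and 12.18, 12.39, 12.41 and 12.39 in Atg16l1ΔIEC libraries. It was 12.06 and 12.27 in Rnaseh2bΔIEC and 12.44, 12.89, 13.20 and 13.26 in double knockout libraries, which all lay below WT and above both single knockouts. *Egln1* differed from WT by -0.46 in Rnaseh2bΔIEC and -0.34 in Atg16l1ΔIEC organoids. *Ankrd37*, a small ankyrin repeat protein induced by hypoxia, was 10.54, 10.54, 10.33 and 10.32 in WT and 9.21, 9.32, 9.31 and 9.31 in Atg16l1ΔIEC libraries. It was 9.23 and 9.35 in Rnaseh2bΔIEC and 9.67, 10.05, 10.14 and 10.18 in double knockout libraries, again between the groups and without overlap.

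Among the genes of collagen and protein folding, the collagen prolyl hydroxylase *P4ha1* was 11.18, 11.16, 11.23 and 11.12 in WT and 10.41, 10.51, 10.45 and 10.49 in Atg16l1ΔIEC libraries. It was 10.09 and 10.22 in Rnaseh2bΔIEC and 10.45, 10.65, 10.93 and 10.95 in double knockout libraries, so the double knockout overlapped Atg16l1ΔIEC but not WT or Rnaseh2bΔIEC. The related hydroxylase *P4ha2* differed from WT by -0.67 in Rnaseh2bΔIEC and -0.59 in Atg16l1ΔIEC organoids. The oxidase of the endoplasmic reticulum *Ero1l* was 14.36, 14.34, 14.59 and 14.50 in WT, 13.45, 13.68, 13.55 and 13.59 in Atg16l1ΔIEC, 13.04 and 13.26 in Rnaseh2bΔIEC and 13.41, 13.84, 14.37 and 14.44 in double knockout libraries. The lowest *Ero1l* library of the double knockout lay below every Atg16l1ΔIEC library, and its lane 1 libraries lay within the WT range.

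Among the secreted and membrane products, the glycoprotein *Stc2* was 11.28, 11.50, 11.58 and 11.51 in WT and 10.86, 10.88, 10.42 and 10.58 in Atg16l1ΔIEC libraries. It was 10.22 and 10.08 in Rnaseh2bΔIEC and 10.54, 10.95, 11.60 and 11.48 in double knockout libraries. The vessel growth factor *Vegfa* differed from WT by -0.83 in Rnaseh2bΔIEC and -0.70 in Atg16l1ΔIEC organoids. For *Vegfa* the lane 2 libraries of the double knockout (11.77 and 12.07) were at the single knockout level and its lane 1 libraries (12.71 and 12.74) at the WT level. The carbonic anhydrase *Car9*, which handles acid at the cell surface, differed by -0.29 and -0.27.

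Among the stress and growth regulators, *Ddit4*, an inhibitor of mTORC1, was 12.83, 12.89, 12.41 and 12.47 in WT and 11.63, 11.64, 11.82 and 11.83 in Atg16l1ΔIEC libraries. It was 11.74 and 11.67 in Rnaseh2bΔIEC and 12.57, 12.69, 12.18 and 12.20 in double knockout libraries, and no single knockout library overlapped WT or double knockout. The MYC antagonist *Mxi1* was 11.05, 11.01, 10.87 and 10.81 in WT, 10.23, 10.30, 10.47 and 10.44 in Atg16l1ΔIEC, 10.40 and 10.43 in Rnaseh2bΔIEC and 10.38, 10.53, 10.68 and 10.69 in double knockout libraries. Every *Mxi1* library of the double knockout lay below every WT library, and the lowest of them lay among the single knockouts. The differences from WT in Rnaseh2bΔIEC and Atg16l1ΔIEC organoids were -0.68 and -0.72 for *Ndrg1*, a stress-responsive growth regulator, -0.83 and -0.70 for the histone demethylase *Kdm3a* and -0.51 and -0.38 for the transcriptional repressor *Bhlhe40*. They were smaller for the mitophagy receptors *Bnip3* (-0.33 and -0.15) and *Bnip3l* (-0.11 and -0.12) and for *Higd1a*, a mitochondrial protein (-0.25 and -0.12).

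**Figure D3:**
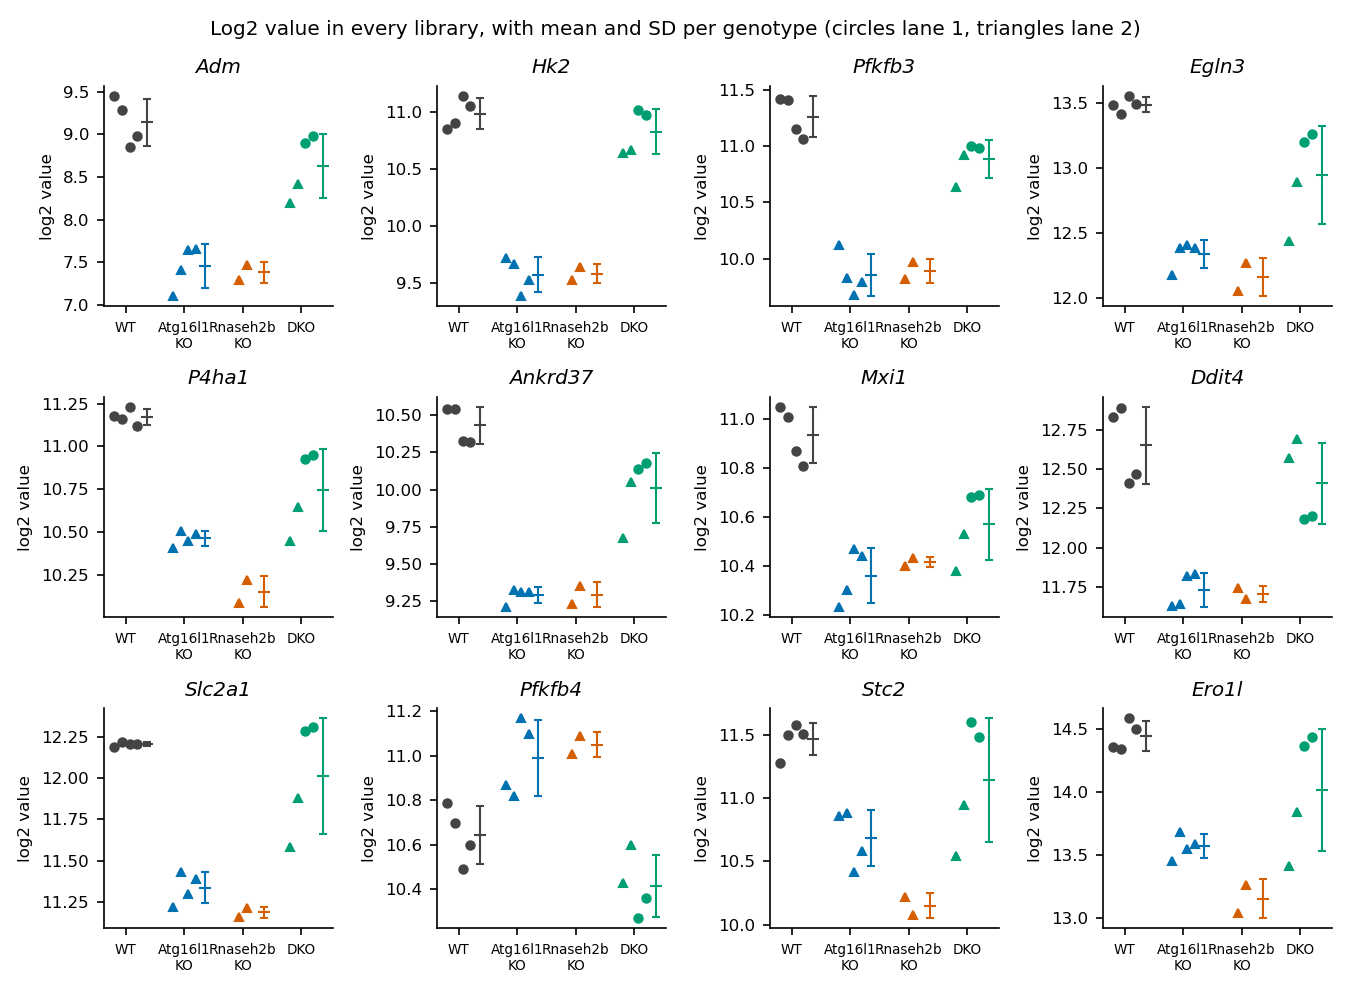
Log2 value of 12 members in each library (y axis, scaled per gene) by genotype (x axis), with circles for lane 1, triangles for lane 2 and bars for mean ± SD (n = 4, and n = 2 for Rnaseh2bΔIEC). Single knockouts lie below WT for 11 of the genes and above it for *Pfkfb4*, and the double knockout libraries of lane 2 lie below those of lane 1 except for *Ddit4* and *Pfkfb4*.

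The double knockout was then compared with the other genotypes. These comparisons share WT and single knockout libraries with the contrast that chose the set, so a low single knockout level enters them. They were tested with limma over 12802 genes for the 32 members other than *Adm*, *Hk2* and *Pfkfb3*. In bulk RNA, fewer cells of a type and less RNA per cell cannot be told apart.

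Against WT, 9 of 32 members fell in the double knockout and 0 rose (limma, Benjamini-Hochberg adjusted p below 0.05), and 17 had an unadjusted p below 0.05. Among all genes 8.01% fell and 8.1% rose. They were 2 of 12 glycolysis enzymes and 7 of 20 other HIF targets. The largest falls were those of *Egln3* (-0.54, SE 0.14, limma adjusted p = 0.02), *P4ha1* (-0.43, SE 0.09, limma adjusted p = 0.0077), *Ankrd37* (-0.42, SE 0.10, limma adjusted p = 0.012) and *Mxi1* (-0.37, SE 0.08, limma adjusted p = 0.0081). *Gpi1* fell by 0.35, *Slc16a3* by 0.29, *Bhlhe40* and *Kdm3a* by 0.28 each and *Pgam1* by 0.21 on the log2 scale. *Slc2a1* did not pass (-0.19, 95% interval -0.46 to 0.08), nor did *Vegfa* (-0.32, 95% interval -0.70 to 0.05). The median over the 32 members was -0.23 (all genes 0).

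The lanes changed this comparison. With lane as a covariate, which gives the difference within a lane, 4 of 32 members fell (*Pgam1*, *P4ha1*, *Ddit4* and *Kdm3a*), against 5.87% of all genes, and the median within lane 1 was -0.04. The difference within lane 1 was -0.26 for *Egln3*, -0.23 for *P4ha1*, -0.27 for *Ankrd37* and -0.25 for *Mxi1*. A fit of the lane 1 libraries alone called 6 of 32 members, all lower, and its share of all genes is not given here. It called *Egln3* and *P4ha1* (limma adjusted p = 0.015 and 0.01) but not *Ankrd37* and *Mxi1* (limma adjusted p = 0.068 and 0.06). In lane 1, 13 of 32 members had both double knockout libraries below every WT library, against 22.2% of all genes. The lane 2 libraries of the double knockout lay below its lane 1 libraries for 26 of 35 members, 10 of 14 glycolysis enzymes and 16 of 21 other HIF targets, against 33.7% of all genes. The lane difference was largest for *Vegfa* (-0.81), *Stc2* (-0.79), *Ero1l* (-0.78), *Adm* (-0.63), *Slc2a1* and *Egln3* (-0.57 each), and it was 0.44 in the other direction for *Ddit4*. Lanes and pairs of libraries cannot be told apart here. For *Ddit4*, WT libraries 1 and 2 (12.83 and 12.89) lay above WT libraries 3 and 4 (12.41 and 12.47) although all are in lane 1. Its difference of -0.46 within lane 1 sets double knockout libraries 3 and 4 (12.18 and 12.20) against both WT pairs, so its size depends on the WT pair. With the libraries of each pair averaged, 0 members were called against any genotype, and the unadjusted p was below 0.05 for 9 against WT, 10 against Atg16l1ΔIEC and 14 against Rnaseh2bΔIEC organoids.

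Against Atg16l1ΔIEC, 11 of 32 members rose in the double knockout and 1 fell (limma adjusted p below 0.05), beside 12.6% and 12.5% of all genes. All 11 that rose were other HIF targets (of 20), and the 1 that fell was the glycolysis regulator *Pfkfb4* (-0.57, SE 0.09, limma adjusted p = 0.0011). The glycolysis members *Hk2* (1.25) and *Pfkfb3* (1.03) were also higher, but they chose the set and are left out of these counts. The largest rises were those of *Ankrd37* (0.72, SE 0.10, limma adjusted p = 0.00041), *Ddit4* (0.68, SE 0.13, limma adjusted p = 0.0028), *Slc2a1* (0.68, SE 0.12, limma adjusted p = 0.0025) and *Egln3* (0.60, SE 0.14, limma adjusted p = 0.0082). *Ndrg1* (0.47), *Kdm3a* (0.41), *P4ha2* (0.35), *P4ha1* and *Higd1a* (0.28 each), *Egln1* (0.25) and *Bnip3l* (0.13) also rose. The count called was 20 of 32 without double knockout library 1, which was the lowest of its group for most members. With lane as a covariate 8 members rose and 5 fell (all genes 15.6% and 15.4%). The glycolysis enzymes among the 5 that fell were *Pfkfb4* (-0.48), *Gpi1* (-0.30), *Pkm* (-0.25) and *Eno1* (-0.22), and the other was *Bnip3* (-0.20). Within lane 2 alone, 5 rose and 2 fell (all genes 7.93% and 8.26%), and the difference was 0.39 for *Slc2a1*, 0.32 for *Egln3*, 0.57 for *Ankrd37* and 0.90 for *Ddit4*.

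Against Rnaseh2bΔIEC, 15 of 32 members rose in the double knockout and 1 fell, beside 11.1% and 14.4% of all genes. The risers were 14 of 20 other HIF targets and the glycolysis enzyme *Pfkl* (0.21, SE 0.07, limma adjusted p = 0.043), and *Pfkfb4* fell again (-0.63, SE 0.11, limma adjusted p = 0.0018). The untested *Hk2* (1.24) and *Pfkfb3* (0.99) were higher here too and are not counted. The largest rises were those of *Stc2* (0.99, SE 0.23, limma adjusted p = 0.0081), *Ero1l* (0.86, SE 0.21, limma adjusted p = 0.012), *Slc2a1* (0.83, SE 0.15, limma adjusted p = 0.0023) and *Egln3* (0.78, SE 0.17, limma adjusted p = 0.0055). *Ankrd37* (0.72), *Ddit4* (0.70), *P4ha1* (0.59), *Kdm3a* (0.55), *P4ha2* (0.43), *Ndrg1* (0.42), *Higd1a* (0.41), *Egln1* (0.37), *Pdk1* and *Bhlhe40* (0.23 each) also rose. The fit with lane as a covariate gave 10 that rose and 1 that fell (all genes 11.9% and 15.2%). Within lane 2 the differences were smaller, 0.59 for *Stc2*, 0.47 for *Ero1l*, 0.54 for *Slc2a1* and 0.50 for *Egln3*, while that of *Ddit4* was 0.93. The count called rested on having both Rnaseh2bΔIEC libraries, and it was 9 without library 1, 8 without library 2 and 8 with only the genotypes compared.

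Of 32 members, 10 rose against both single knockouts (all genes 6.01%), and 7 did so with lane as a covariate (all genes 7.43%). Both comparisons use the same double knockout libraries. The 7 were *Slc2a1*, *Egln1*, *Egln3*, *Ankrd37*, *Ddit4*, *Kdm3a* and *Higd1a*, none of them a glycolysis enzyme. Within lane 2, both double knockout libraries lay above all 6 single knockout libraries for 8 of 32 members, 0 of 12 glycolysis enzymes and 8 of 20 other HIF targets, against 17.7% of all genes. The genes that chose the set, *Hk2*, *Pfkfb3* and *Adm*, also did so and are left out of these counts. The mean difference there was 1.08 for *Hk2*, 0.91 for *Pfkfb3* and *Ddit4*, 0.89 for *Adm* and 0.57 for *Ankrd37*, and between 0.24 and 0.44 for *Egln1*, *Ndrg1*, *Higd1a*, *Egln3*, *Kdm3a* and *Slc2a1*. For *Vegfa* (0.02), *Slc16a3* (0.02) and *Mxi1* (0.07) the lane 2 double knockout mean was near that of the single knockouts. The residual *Atg16l1* and *Rnaseh2b* transcripts of the double knockout stand beside all of these differences.

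**Figure D4:**
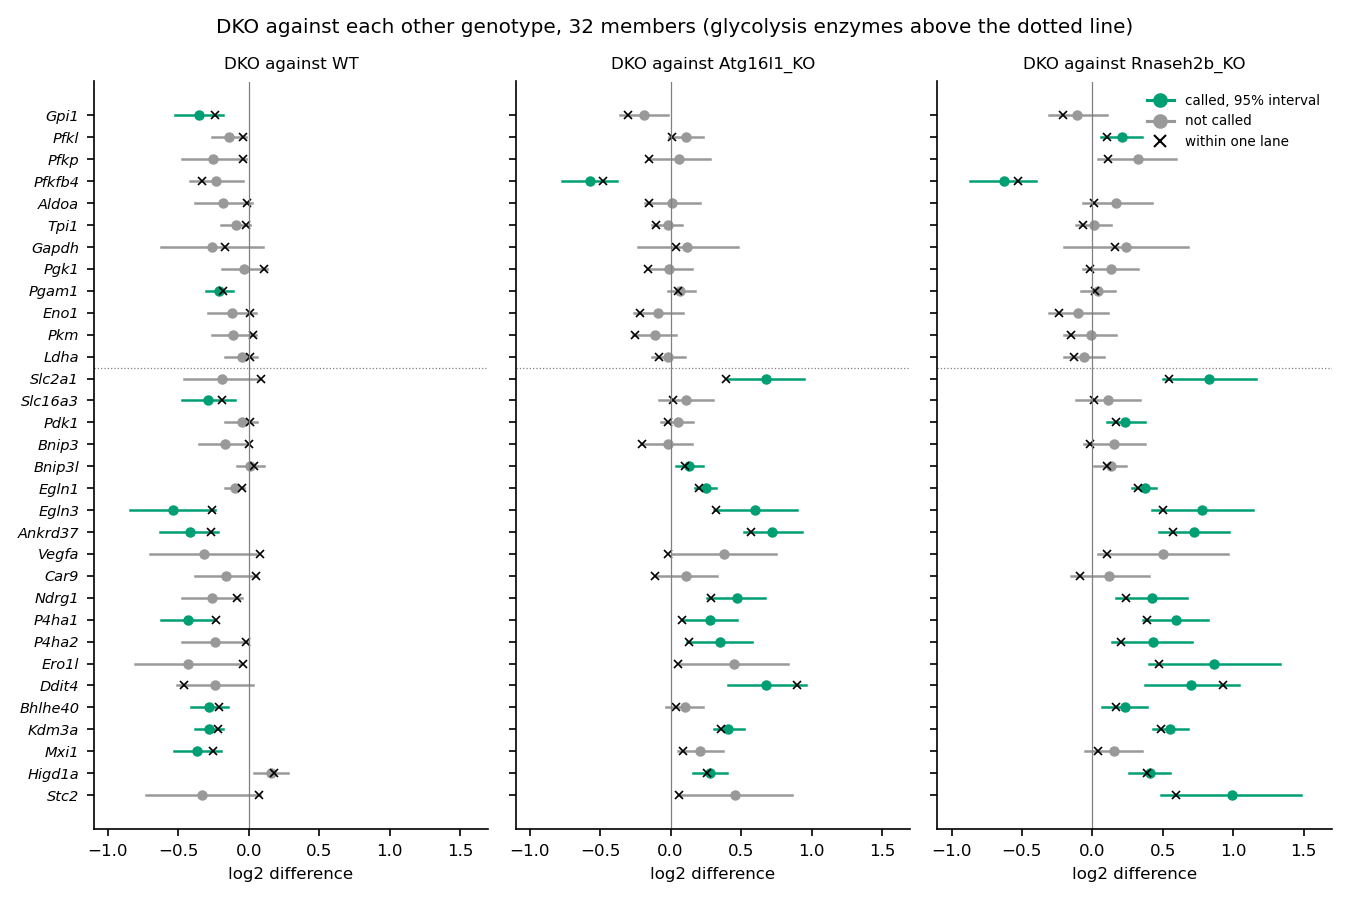
Log2 difference (x axis) of the double knockout (DKO) from each other genotype for 32 members (y axis), with 95% intervals, green where the limma adjusted p is below 0.05, and crosses for the difference within lane 1 (against WT) or lane 2 (against the single knockouts). Against the single knockouts the green points above 0 are other HIF targets, except *Pfkl* against Rnaseh2bΔIEC, and many crosses against WT lie near 0. *Adm* and the glycolysis members *Hk2* and *Pfkfb3*, which chose the set and were higher than in both single knockouts, are not shown.

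No member passed the test between the single knockouts. Between Rnaseh2bΔIEC and Atg16l1ΔIEC, limma called 0 of 32 members, with 5 at an unadjusted p below 0.05, while 6.81% of all genes were called in either direction. The median difference was -0.11, and *Hk2* (0.01), *Pfkfb3* (0.04) and *Adm* (-0.07) had values close to each other in both. The largest difference was that of *Stc2* (-0.53), followed by *Ero1l* (-0.42) and *P4ha1* (-0.31). With lane as a covariate *P4ha1*, *Ero1l*, *Pdk1* (-0.19), *Egln1* (-0.12) and *Stc2* were lower in Rnaseh2bΔIEC organoids, against 4.98% of all genes. The fit of only these genotypes, whose libraries are all in lane 2, called 4.

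The HIF subunits differed in direction. *Hif1a* was 11.42, 11.37, 11.38 and 11.33 in WT and 11.86, 11.66, 11.91 and 11.83 in Atg16l1ΔIEC libraries. It was 11.75 and 11.79 in Rnaseh2bΔIEC and 11.48, 11.39, 11.43 and 11.40 in double knockout libraries, so all single knockout libraries lay above all others. It was lower in the double knockout than in Atg16l1ΔIEC (-0.39, SE 0.05, limma adjusted p = 0.00018) and Rnaseh2bΔIEC organoids (-0.35, SE 0.06, limma adjusted p = 0.0011), and also with lane as a covariate. *Epas1*, the second alpha subunit, was not called in any tested comparison (0.10 against Atg16l1ΔIEC, -0.17 against Rnaseh2bΔIEC and -0.19 against WT). *Hif3a*, a shorter relative that is itself induced by HIF, was 0.83 higher than in Atg16l1ΔIEC and 0.72 higher than in Rnaseh2bΔIEC organoids (limma adjusted p = 0.0011 and 0.0061). *Arnt* fell by 0.16 against WT (limma adjusted p = 0.0085), and *Vhl* and *Egln2* were not called in any tested comparison. These are transcript levels, and the amount of HIF protein, which hydroxylation and VHL set, was not measured.

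Of the 17 genes of the HIF machinery, 3 rose and 1 fell against WT, 3 rose and 2 fell against Atg16l1ΔIEC, 2 rose and 3 fell against Rnaseh2bΔIEC organoids, and 3 were higher in Rnaseh2bΔIEC than in Atg16l1ΔIEC. These counts, and those of the lists below, stand beside the shares of all genes given above for each comparison. Between the single knockouts, 556 of all 12802 genes were called higher and 316 lower in Rnaseh2bΔIEC than in Atg16l1ΔIEC. With lane as a covariate, 666 of all genes rose in the double knockout against WT. Beside those named, *Arnt2*, a relative of *Arnt*, rose by 0.25 against WT (0.23 and not called in the fit with lane), and *Cited2*, which competes with HIF for its coactivator, was lower by 0.27 and 0.28 against Atg16l1ΔIEC and Rnaseh2bΔIEC. *Elob* and *Eloc*, the elongins of the VHL complex, rose by 0.14 and 0.13 against WT (*Eloc* not called in the fit with lane) and were 0.17 and 0.18 higher in Rnaseh2bΔIEC than in Atg16l1ΔIEC, as was *Arnt2* (0.26).

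Of 30 further HIF targets outside the set, 11 rose and 2 fell in the double knockout against Atg16l1ΔIEC (all genes 12.6% and 12.5%). Against Rnaseh2bΔIEC 12 rose and 2 fell (all genes 11.1% and 14.4%), and against WT 0 rose and 5 fell (8.1% and 8.01%). With lane as a covariate 8 rose and 5 fell against Atg16l1ΔIEC (all genes 15.6% and 15.4%). That fit gave 10 that rose and 2 that fell against Rnaseh2bΔIEC (11.9% and 15.2%). The median within lane 2 was 0.02 against Atg16l1ΔIEC and 0.1 against Rnaseh2bΔIEC. *Plod2*, a collagen lysyl hydroxylase, was higher by 0.96 than in Atg16l1ΔIEC, and *Tff3*, a goblet cell peptide, by 0.80 than in Atg16l1ΔIEC and 0.79 than in Rnaseh2bΔIEC. *Plod2* was not called with lane as a covariate (0.24, limma adjusted p = 0.09). *Hmox1*, the haem-degrading oxygenase, was 0.70 higher than in Rnaseh2bΔIEC. Against WT *Ccng2*, a cyclin linked to arrest (-0.37), the zinc finger gene *Zfp395* (-0.30) and *Jmjd6*, an oxygenase (-0.20), fell. None of the 5 that fell against WT was called with lane as a covariate, where 1 rose. Between the single knockouts 3 were higher in Rnaseh2bΔIEC (*Plod1* by 0.51, *Rab20* by 0.32 and *Sap30* by 0.30) and 1 was lower, the glycogen branching enzyme *Gbe1* (-0.49).

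Of 14 glycolysis isoforms and neighbours outside the set, 2 rose and 6 fell against Atg16l1ΔIEC and 2 rose and 6 fell against Rnaseh2bΔIEC, while 2 fell against WT (*Hkdc1* by 0.43 and *Aldoc* by 0.30) and 0 were called between the single knockouts (3 at an unadjusted p below 0.05). *Pklr*, the pyruvate kinase of liver, red cell and enterocyte, was lower by 0.57 than in Atg16l1ΔIEC and by 1.0 than in Rnaseh2bΔIEC organoids (limma adjusted p = 0.023 and 0.0037), and the hexokinase *Hk1* rose by 0.52 against Rnaseh2bΔIEC. In the fit with lane, *Hkdc1* and *Aldoc* against WT, *Pklr* against Atg16l1ΔIEC and *Hk1* were not called. *Aldoc* was lower by 0.30 than in Atg16l1ΔIEC. The direction of *Pklr* was thus opposite to that of *Slc2a1* in the same comparisons.

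Of 12 genes of pyruvate dehydrogenase and pyruvate entry to the mitochondria, 1 rose and 3 fell against WT, 2 fell against Atg16l1ΔIEC, 3 fell against Rnaseh2bΔIEC and 0 were called between the single knockouts (1 at an unadjusted p below 0.05). They include the pyruvate dehydrogenase kinases *Pdk2* (-0.31 against WT and -0.36 against Rnaseh2bΔIEC) and *Pdk4* (-0.47 against Rnaseh2bΔIEC), the phosphatase *Pdp2* (-0.29 against Atg16l1ΔIEC) and the dehydrogenase subunits *Pdhb* (-0.17 against Atg16l1ΔIEC) and *Pdhx* (0.16 against WT). *Pdk2* and *Pdhx* were not called against WT in the fit with lane. Of 13 targets of ATF4, the amino acid stress factor, 1 rose and 1 fell against WT, 1 rose against Atg16l1ΔIEC, 5 rose against Rnaseh2bΔIEC and 3 were lower in Rnaseh2bΔIEC than in Atg16l1ΔIEC. *Slc7a11*, the cystine carrier, was 1.49 higher than in Rnaseh2bΔIEC and 0.68 higher than in WT, *Psat1*, an enzyme of serine synthesis, was 0.51 higher than in Rnaseh2bΔIEC, and *Ddit3*, a stress transcription factor, fell by 0.52 against WT, a call lost in the fit with lane. In the fit with lane, 6 of the 13 fell against Atg16l1ΔIEC. The median difference of these 13 from WT, not tested, was -0.56 in Rnaseh2bΔIEC and -0.17 in Atg16l1ΔIEC organoids. All 13 lay below every WT library in Rnaseh2bΔIEC (all genes 27%), and 6 did in Atg16l1ΔIEC organoids (all genes 13.1%). Of 12 proliferation genes, 3 rose against WT (*Mcm5* by 0.33, *Mcm2* and *Mcm3* by 0.27 each), 2 against Atg16l1ΔIEC (*Plk1* by 0.13 and *Pcna* by 0.12), 1 against Rnaseh2bΔIEC (*Plk1* by 0.21) and 0 between the single knockouts (3 at an unadjusted p below 0.05). The 3 calls against WT were lost in the fit with lane, which called 0 there.

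The markers of intestinal cell types moved between the same genotypes. The summed level of 12 enterocyte markers was between 18.63 and 18.76 (log2) in Rnaseh2bΔIEC, 17.82 and 18.57 in Atg16l1ΔIEC, 17.56 and 18.19 in WT and 17.26 and 17.82 in double knockout libraries, and 11 of 12 fell in the double knockout against Rnaseh2bΔIEC. That of 7 goblet cell markers was between 15.44 and 15.75 in Atg16l1ΔIEC, 15.53 and 15.68 in Rnaseh2bΔIEC, 15.92 and 16.42 in WT and 16.34 and 16.61 in the double knockout. That of 9 stem cell markers was between 14.9 and 15.17 in Atg16l1ΔIEC, 15.21 and 15.27 in Rnaseh2bΔIEC, 15.46 and 15.6 in WT and 15.4 and 15.66 in the double knockout. Single stem cell markers of the double knockout differed from WT by -1.51 to 0.29. Of the 9, 1 was called lower (all genes 8.01%), and 1 with lane as a covariate (all genes 5.87%). The summed level of 8 Paneth cell markers was between 14.46 and 15.12 in Atg16l1ΔIEC, 14.74 and 14.99 in Rnaseh2bΔIEC, 14.97 and 15.09 in WT and 15.47 and 15.87 in the double knockout. Goblet and stem cell markers were thus lower in both single knockouts, as most members and most ATF4 targets were. The part of these markers and of the ATF4 targets in the members' differences was not tested.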

How the data were processed

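Per the submitters' processing notes, adapters were removed with cutadapt, TopHat2 mapped the reads to GRCm38, HTSeq gave counts per gene, and DESeq2 followed (versions not given in the sources used here). The authors deposited 1 table of log2 values for 18781 genes and 14 libraries, from -2.13 to 17.45, whose transformation is not named. Weakly expressed genes vary little on this scale, which understates their differences. Symbols and coordinates were taken from GENCODE M21 (99.7% of identifiers matched). Genes with a mean of at least log2 of 10 were tested (12802). limma 3.58.1 in R 4.3.3 was fitted to all libraries with 1 mean per genotype, a mean trend and Benjamini-Hochberg adjustment at 0.05, and was tested on simulated data. Figures used matplotlib.

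The members and lists were chosen with earlier results of these data known. The single knockout contrasts with WT chose the set and were not tested, and *Adm*, *Hk2* and *Pfkfb3* were left out of all counts of calls. Given in full are these genes, the 4 largest called rises and falls of each tested comparison and the 4 largest single knockout differences. Of the other lists, up to 3 called genes per comparison were to be named, with *Hif1a*, *Epas1*, *Arnt*, *Vhl* and *Egln2*, a few more were named after their values were seen, and some are not reported here. Alternatives were other scalings, pseudocounts, filters, groups, lane, a replicate block, averaged pairs and leaving out each library. Read numbers could not be rebuilt from these values, which leaves the precision of each library to the spread between libraries.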

Additional observations from a re-analysis of the deposited data

Results flagged for a closer look

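For 12 members, every Rnaseh2bΔIEC library moved one way from every WT library, and every double knockout library moved the other way from every Atg16l1ΔIEC library. The 2 comparisons, which differ by label in *Rnaseh2b*, thus had opposite signs. The same held for 10.6% of all 12802 genes, and the 12 include *Adm*, *Hk2* and *Pfkfb3*, so nothing is read from the count. The difference between the 2 comparisons was not tested, because the first contrast chose the set. That contrast shares no lane, and the double knockout lies in both lanes while Atg16l1ΔIEC lies in lane 2, so lane enters both. The residual transcripts of the deleted genes in the double knockout also stand beside it, so *Rnaseh2b* deletion is not isolated. The log2 differences of Rnaseh2bΔIEC from WT and of the double knockout from Atg16l1ΔIEC were -1.76 and 1.18 for *Adm*, -1.40 and 1.25 for *Hk2*, -1.37 and 1.03 for *Pfkfb3*, -1.32 and 0.60 for *Egln3* and -1.14 and 0.72 for *Ankrd37*. They were -1.02 and 0.68 for *Slc2a1*, -0.94 and 0.68 for *Ddit4*, -0.83 and 0.41 for *Kdm3a*, -0.68 and 0.47 for *Ndrg1*, -0.46 and 0.25 for *Egln1* and -0.25 and 0.28 for *Higd1a*. *Pfkfb4* had the reverse order, 0.40 and -0.57.

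In 6 of 105 groups of 4 libraries, 1 library lay far from the other three by Dixon's ratio, and chance gives about 1 in 20. Atg16l1ΔIEC library 1 was low for *Ankrd37* (9.21, others 9.31 to 9.32), *Egln3* (12.18, others 12.39 to 12.41) and *Car9* (12.86, others 13.04 to 13.06). Atg16l1ΔIEC library 2 was high for *Pgk1* (10.84, others 10.67 to 10.68), WT library 3 was high for *Bnip3l* (10.68, others 10.57 to 10.59), and double knockout library 1 was low for *Slc16a3* (11.96, others 12.32 to 12.38).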

How the results depend on the processing

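Equal library medians, pseudocounts of 1 and 5 and either filter kept all 6 results (called members in 4 comparisons and 2 medians) on their side. With lane as a covariate, called members numbered 4 against WT and 5 between the single knockouts, and the medians against WT were -0.21 in Rnaseh2bΔIEC and -0.09 in Atg16l1ΔIEC. Within lane they were 6 against WT, 7 against Atg16l1ΔIEC and 11 against Rnaseh2bΔIEC, and with only the genotypes compared 8 against Rnaseh2bΔIEC. Between the single knockouts, which are all in lane 2, these settings are the same fit and gave 4. Averaged pairs, which leave fewer samples, gave 0 in each double knockout comparison. Leaving out 1 library gave 7 to 12 against WT, 9 to 20 against Atg16l1ΔIEC, 8 to 22 against Rnaseh2bΔIEC and 0 between the single knockouts, with medians of -0.53 to -0.46 and -0.41 to -0.34. Single knockouts and WT share no lane, so no within-lane value was possible there. A lone Rnaseh2bΔIEC library was assumed to vary like the other groups. Of 242 values of named members under the alternatives, 213 kept direction and call, 29 lost the call and 0 reversed. These members were picked as the largest called changes, and scalings, pseudocounts and filters left their values almost unchanged. With averaged pairs every one of them lost its call. Other causes were not tested.

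The replicate numbers share only a number (correlations of -0.5 to 0.44), and with a replicate block the called members were 11 against WT, 14 against Atg16l1ΔIEC, 13 against Rnaseh2bΔIEC and 0 between the single knockouts.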
